A study of Sus scrofa with 2 samples.

Results

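The cells described are skin macrophages chosen by transcripts of the complement component C1q, called C1Q macrophages, most of which also held transcripts of the scavenger receptor CD163 and the lectin CD209. A cell barcode was kept when it had at most 4500 detected genes, at most 30000 unique molecular identifiers (UMIs, 1 for each captured transcript) and at most 10% of its UMIs on the 13 mitochondrial genes that encode proteins. C1Q macrophages were selected on measured UMIs: they were the kept cells with at least 10 UMIs of C1QA and C1QB together, 0 UMIs of the T cell gene CD3E, fewer than 5 UMIs of CCR7 (a receptor of mature dendritic cells), under 1% of UMIs on the collagen genes COL1A1, COL1A2 and COL3A1, and under 0.3% on the keratin gene KRT5. This rule found 298 cells among the 6998 kept cells of the 9239 barcodes in the files. Of them, 101 were among 2775 fresh cells and 197 among 4223 cryopreserved cells. C1QA and C1QB chose the cells, so their level in them is no finding.

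The series compared cells from the dorsal skin of male farm pigs (Sus scrofa) before and after freezing. Epidermis and dermis were digested together with a commercial enzyme kit, and libraries were made with the 10x Genomics Chromium Single Cell 3′ kit V3. The fresh group is 1 library of untreated cells, and the cryopreserved group is 1 library of cells frozen in 90% FBS + 10% DMSO and thawed. The study calls the pigs healthy and young without an exact age, and leaves unsaid if 1 pig gave both libraries, and the extraction text given for both samples describes freezing and removal of dead cells by FACS although the title and treatment of 1 sample mark it as fresh. With 1 library in each group the spread between samples is unknown, no test was run, and freezing, animal and library preparation cannot be told apart. A difference here is one between 2 libraries, without a replicate check. Intervals given for shares and ratios are exact 95% intervals, while that of the difference in shares is an approximate 95% interval (Newcombe). Limits given for a count of 0 are those of 3 counts. All of these cover counting error only.

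Macrophages of the skin live in the dermis, where they take up dead cells, pathogens, heme and old matrix, and many of them persist as residents around vessels and nerves. C1q is the recognition part of the classical complement pathway, and it is made mostly by macrophages and dendritic cells rather than by the liver. CD163 clears hemoglobin bound to haptoglobin and in the pig is the receptor through which the virus of porcine reproductive and respiratory syndrome enters macrophages. CD209, also called DC-SIGN, is a C-type lectin that binds mannose-rich sugars on microbes.

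The fresh C1Q macrophages held 1144506 UMIs and the cryopreserved ones 1788725 UMIs. Fresh cells had a median of 10998 UMIs (95% interval 9049 to 12666, by order statistics) and a range of 1180 to 24037. Cryopreserved cells had a median of 8807 UMIs (7733 to 9418) and a range of 1665 to 20619. The median number of genes was 3030 and 2640, and the median mitochondrial share was 2.92% and 2.02%. All other kept cells had a median of 11021 and 7912 UMIs, so the fresh library was deeper per cell in both kinds of cells. The libraries shared 6 barcodes. None of these barcodes marked a C1Q macrophage in both libraries, and 1 cryopreserved C1Q macrophage carried a shared barcode.

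The label was checked against macrophage genes that the rule did not use. CD163 (ENSSSCG00000033146, Sscrofa11.1 chromosome 5, 63300200 to 63334497) had a UMI in 83 of 101 fresh cells (82.2%, 73.3 to 89.1%) and in 159 of 197 cryopreserved cells (80.7%, 74.5 to 86.0%). The median cell held 4 and 3 CD163 UMIs, with quartiles of 1 to 8 and 1 to 5, and the highest cell held 39 and 14. CD209 (ENSSSCG00000013579, chromosome 2, 71394414 to 71397711) had a UMI in 82 fresh cells (81.2%, 72.2 to 88.3%) and 171 cryopreserved cells (86.8%, 81.3 to 91.2%). Its median was 8 and 18 UMIs per cell, with quartiles of 2 to 25 and 3 to 44, and the highest cell held 101 and 132. Both genes thus marked most, not all, of the cells that C1q chose, and CD209 had the wider range. Neither gene had a UMI in 9 fresh and 15 cryopreserved cells. CD3E cells, with at least 3 UMIs of this T cell gene, served as the background of free RNA. Neither CD163 nor CD209 had a UMI in 108 fresh or 183 cryopreserved CD3E cells. This allows up to 2.78% and 1.64% of such cells with a captured UMI. These limits hold for captured UMIs at the depth of the CD3E cells, not for the share of cells that carry the RNA. The CD3E cells were shallower, with a median of 6622 and 5067 UMIs. CD163 was not absent from the other myeloid cells, as given below. After each cell was thinned to 2000 UMIs, which left out 1 fresh and 2 cryopreserved C1Q macrophages, CD163 was seen in 50% of fresh and 47.7% of cryopreserved C1Q macrophages and CD209 in 61.0% and 78.5%, and both were at 0 in the thinned CD3E cells.

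Other genes of the macrophage program ranged from nearly every cell to a minority of cells. CSF1R, the receptor for the growth factor that keeps macrophages alive, had a UMI in 100 of 101 fresh and 193 of 197 cryopreserved cells and summed to 1083 and 1207 CPM (UMIs of the gene per 1000000 UMIs of the cells). CD68, a lysosomal glycoprotein, was seen in 90 and 183 cells at 634 and 608 CPM. MRC1, the mannose receptor, was seen in 90 and 167 cells at 848 and 641 CPM. CD14, a co-receptor for bacterial lipopolysaccharide, was seen in 87 and 159 cells at 508 and 511 CPM. MSR1 was seen in 59 and 127 cells, VSIG4 in 47 and 100, LYVE1 in 41 and 119, TIMD4 in 31 and 81, and SIGLEC1, a sialic acid receptor, in 17 and 31. In CD3E cells CSF1R, CD68, MRC1 and CD14 each reached at most 4 cells of either library. C1QC, the C1q gene outside the rule, was in all 298 cells, with 1 to 143 UMIs per fresh cell and 3 to 135 per cryopreserved cell.

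**Figure D1:**
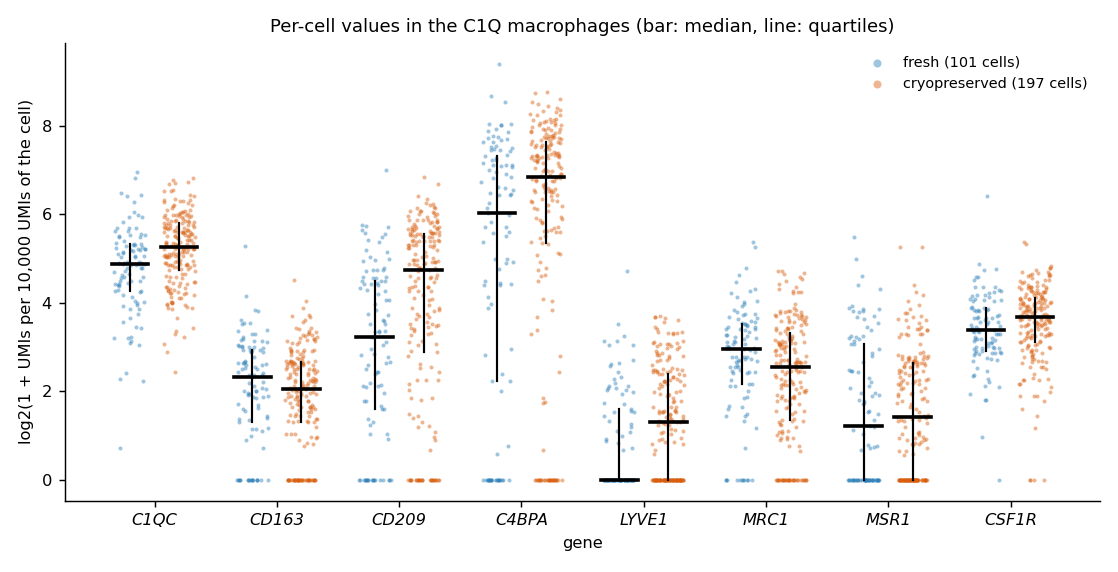
Each point is 1 C1Q macrophage, plotted as log2(1 + UMIs per 10000 UMIs of that cell) for 8 genes on the horizontal axis, with the 101 fresh cells in blue and the 197 cryopreserved cells in orange. Bars are medians and lines span the quartiles; C1QC was above 0 in every cell and CSF1R in all but 1 fresh and 4 cryopreserved cells, while CD209, C4BPA, LYVE1 and MSR1 were at 0 in 19, 21, 60 and 42 fresh and 26, 27, 78 and 70 cryopreserved cells.

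Markers of other cell types ranged from 0 to levels above those of all other kept cells. CD207 of Langerhans cells, CD3D of T cells, HDC of mast cells and PROX1 of lymphatic endothelium had no UMI in any of the 298 cells, which allows up to 2.62 CPM in the fresh and 1.68 in the cryopreserved cells. CD3G, TYRP1, CD79B and MS4A1 also had none, but all other kept cells held 0, 0, 0 and 1 of their UMIs in the fresh and 0, 0, 5 and 0 in the cryopreserved library, so these genes check nothing. S100A8 and S100A12 of neutrophils and XCR1 of cross-presenting dendritic cells had none either, but S100A8 and XCR1 were at most at 0.831 CPM in all other kept cells and S100A12 at 2.67 CPM in the fresh library, under or close to these limits. In the cryopreserved library S100A12 was at 15.3 CPM in all other kept cells. Against all other kept cells MS4A2 was 3.79-fold and 2.59-fold higher, PECAM1 1.75-fold and 2.57-fold, BATF3 of dendritic cells 2.48-fold and 1.95-fold, CD2 of T cells 1.91-fold and 2.02-fold, CD79A of B cells 1.56-fold and 1.66-fold and CSF3R of neutrophils, on 1 and 9 UMIs, 1.94-fold and 7.63-fold. Of the 6 fibroblast genes all had UMIs, the most abundant being COL1A2 with 177 and 148 UMIs, at 0.00868 and 0.00477 times its level in all other kept cells. The 4 keratinocyte genes found summed to 63 and 72 UMIs, led by KRT5 with 38 in each library. The rule itself limited collagen and KRT5. In scaled CPM, as used between the libraries, the fibroblast genes summed to 405 in fresh and 261 in cryopreserved cells, the keratinocyte genes to 52.7 and 42.1, the endothelial genes to 292 and 279 and the mast cell genes to 216 and 144. Mural genes had 6 and 12 UMIs in all, melanocyte genes 2 and 4, neutrophil genes 1 and 9, T cell genes 9 and 22, all of CD2, and B cell genes 34 and 63, all of CD79A. The part of such RNA in the differences between the libraries was not tested. PECAM1, an adhesion molecule of endothelium that leukocytes also carry, had 325 and 461 UMIs in 70 and 137 cells, while the endothelial genes VWF had 15 and 5, CDH5 4 and 4, and CLDN5 5 and 7 UMIs. MS4A2, the beta chain of the IgE receptor known from mast cells, had 219 UMIs in 66 fresh and 211 in 109 cryopreserved cells, beside 40 and 36 UMIs of KIT. CCR7 cells and CD207 cells held MS4A2 as well, at 173 and 164 and at 204 and 189 CPM against 191 and 118 in the C1Q macrophages. HBB, a hemoglobin chain, had 105 and 233 UMIs, with HBM, AHSP and ALAS2 of red cell precursors at 0, and its 91.7 and 130 CPM lay below the 152 and 207 of the CD3E cells. Dendritic genes left 69 and 91 UMIs over 5 genes found, most of them BATF3 with 34 and 46 and CCR7 with 20 and 40.

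Cells close to the limit of 10 C1QA and C1QB UMIs were few. The 13 fresh and 29 cryopreserved cells with 5 to 9 C1QA and C1QB UMIs, just outside, had a median of 3 C1QC UMIs in both libraries, and 8 and 16 of them had a CD209 UMI. The 6 fresh and 11 cryopreserved cells with 10 to 14 UMIs, just inside, had a median of 5.5 and 6 C1QC UMIs, and 4 and 8 of them had a CD209 UMI. Their median depth was 5722 and 3969 UMIs outside and 4887 and 3611 inside. Of all kept cells with at least 10 C1QA and C1QB UMIs, which were 117 fresh and 221 cryopreserved, the limit on CCR7 alone removed 12 and 22, collagen 2 and 1, KRT5 2 and 1, and CD3E none.

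The 3 C1q genes are neighbours on chromosome 6 of Sscrofa11.1, all on the plus strand, with C1QA at 80586259 to 80589213, C1QC at 80592591 to 80597464 and C1QB at 80601680 to 80606076. The 250 bases before the RefSeq 5′ end of each gene are shown because these genes name the cells, and those of CD209 because its level ranged widely among the cells. The windows lie at chr6:80586009-80586258 for C1QA, chr6:80592341-80592590 for C1QC, chr6:80601430-80601679 for C1QB and chr2:71394164-71394413 for CD209, and each is printed 5′ to 3′ on the plus strand. Capitals mark exact matches on either strand to GAGGAA (the core that PU.1, the product of SPI1, binds), to the composite of an ETS and an IRF element, to TGCTGA (a MAF half-site) or TATAAA (the TATA box).
C1QA: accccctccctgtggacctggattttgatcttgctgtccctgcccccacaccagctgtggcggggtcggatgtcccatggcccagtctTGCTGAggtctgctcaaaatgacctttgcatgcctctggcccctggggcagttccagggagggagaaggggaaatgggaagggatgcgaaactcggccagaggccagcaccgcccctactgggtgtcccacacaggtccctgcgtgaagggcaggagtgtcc
C1QC: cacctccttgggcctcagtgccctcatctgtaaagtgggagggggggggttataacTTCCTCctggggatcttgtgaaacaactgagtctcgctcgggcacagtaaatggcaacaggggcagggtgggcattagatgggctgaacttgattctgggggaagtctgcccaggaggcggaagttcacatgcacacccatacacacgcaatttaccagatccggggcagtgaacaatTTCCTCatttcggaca
C1QB: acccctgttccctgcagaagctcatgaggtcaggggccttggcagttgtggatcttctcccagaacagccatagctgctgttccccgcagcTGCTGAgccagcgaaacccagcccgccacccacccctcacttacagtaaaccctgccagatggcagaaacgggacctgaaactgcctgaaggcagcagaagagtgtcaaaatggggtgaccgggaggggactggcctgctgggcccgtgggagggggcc
CD209: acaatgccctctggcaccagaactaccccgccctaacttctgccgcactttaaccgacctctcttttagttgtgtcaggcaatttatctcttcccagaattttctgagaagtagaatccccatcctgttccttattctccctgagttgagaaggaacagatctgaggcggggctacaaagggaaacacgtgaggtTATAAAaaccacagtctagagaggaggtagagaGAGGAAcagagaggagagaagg
TGCTGA stood once in C1QA, 162 to 157 bases before the start, and once in C1QB, 159 to 154 bases before it. It was in 12.6% of 19569 protein-coding promoters of the same length without undetermined bases. GAGGAA stood on the other strand (TTCCTC) at 194 to 189 and at 16 to 11 bases before C1QC and on the gene's strand at 22 to 17 bases before CD209, and 22% of promoters held it. TATAAA was 55 to 50 bases before CD209 and in 9.77% of promoters. The composite of an ETS and an IRF element was in 2.26% of promoters and in none of these 4 windows. These matches are descriptions of sequence only.

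The levels of C1QA and C1QB follow from the rule and are given as a description. C1QA summed to 5907 CPM in fresh and 6982 in cryopreserved C1Q macrophages, C1QB to 4846 and 7027, and C1QC to 3256 and 4333. Each UMI of this kit marks the 3′ end of 1 transcript, so these levels need no correction for gene length. In all other kept cells C1QC was at 25.4 and 19.3 CPM, and in CD3E cells at 0 and 2.79.

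Against all other kept cells, 300 of 2557 genes with at least 200 UMIs in the C1Q macrophages were at least 4-fold higher in both libraries, 11.7% of the genes. These folds describe the cells the rule chose and carry no test. That minimum keeps genes that are high in the chosen cells, and with 200 UMIs over all kept cells instead, a choice made after seeing the data, 411 of 11692 genes were 4-fold higher (3.52%). Ranked by the smaller of the folds in both libraries, the first of the 300 genes was CD209, at 1463 against 4.37 CPM in the fresh library (335-fold, counting interval 281 to 402) and 3245 against 4.73 in the cryopreserved library (686-fold, 588 to 806). C4BPA, which encodes the alpha chain of the complement inhibitor C4b-binding protein, followed a gene without a symbol, ENSSSCG00000031640, at 225-fold and 347-fold. C4BPA had 10155 and 23488 UMIs or 8873 and 13131 CPM. RefSeq places 2 entries named C4BPA on chromosome 9, at 67726159 to 67774369 and at 67815544 to 67827509, so reads of the copies may have been shared between them. The first 20 genes held several uptake receptors. MSR1, a scavenger receptor for modified lipoproteins, was 125-fold and 133-fold higher, TIMD4, a receptor for phosphatidylserine on dead cells, 89.8-fold and 257-fold, and LYVE1, a hyaluronan receptor of perivascular macrophages and lymphatic vessels, 69.4-fold and 133-fold. VSIG4, a receptor for C3 fragments, was 83.2-fold and 216-fold higher and C5AR1, the C5a receptor, 59.5-fold and 65.5-fold. The chemokines CCL14 (148-fold and 214-fold) and CCL8 (111-fold and 120-fold), the lysosomal enzymes CTSL (150-fold and 277-fold) and ACP5 (129-fold and 110-fold), GPR34, CD68 and CD163 (75.5-fold and 70.7-fold) completed the symbols, beside C1QA, C1QB and C1QC.

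The listed genes are given by role, counting those with at least 200 UMIs over all kept cells, and the counts past 4-fold in both libraries stand beside the 3.52% of all genes. They describe lists chosen with earlier results known. In the C1q and complement list 6 of 10 genes were 4-fold higher, or 4 of 8 without C1QA and C1QB, which the rule used. In the list of scavenger receptors and lectins 9 of 13 were higher, and AXL, a receptor for dead cells, with 18 and 25 UMIs, was 4.59-fold and 4.93-fold lower. The Fc and phagocytosis list had 10 of 10 higher, with FCER1G, the common Fc receptor gamma chain, at 15.4-fold and 13.9-fold and TYROBP, an adaptor of activating receptors, at 12.5-fold and 11.9-fold. Pattern recognition had 8 of 13, with TLR2, a receptor for bacterial lipopeptides, at 25.2-fold and 26.5-fold. The list of cathepsins and the lysosome had 14 of 20, among them LGMN, an endopeptidase, at 33.8-fold and 38.2-fold and CST3, the cathepsin inhibitor cystatin C, the most abundant gene of any list with 23445 and 46294 UMIs, at 7.29-fold and 8.70-fold. LYZ had no UMI in any kept cell of either library. Iron and heme genes had 6 of 10, or 5 of 9 without FOLR2, which this list also holds, with HMOX1, which breaks down heme, at 25.7-fold and 30.6-fold and the ferritin light chain FTL at 9.03-fold and 10.3-fold. MHC class II had 3 of 11, the peptide loading genes SLA-DMA (7.66-fold and 4.89-fold), SLA-DMB (12.3-fold and 9.57-fold) and SLA-DOA (11.6-fold and 5.71-fold), while CD74, the invariant chain, was 3.09-fold and 2.10-fold higher and SLA-DRA 3.86-fold and 2.23-fold. The interferon list had 1 of 10, MX2, and none of 10 heat shock, 11 immediate early and 12 mitochondrial genes was 4-fold higher, while EGR1 was 12.7-fold and 12.9-fold lower. Chemokines and cytokines had 8 of 17 higher and 3 lower, with IL1A at 6.16-fold and 13.1-fold and TNF at 11.6-fold and 8.51-fold. CCL2, which draws monocytes, was the most abundant of them at 5837 and 15064 UMIs and only 2.68-fold and 2.62-fold higher than elsewhere in the skin. The lower ones were IL6, with 15 and 25 UMIs, CXCL12, with 7 and 3, and CXCL14, with 3 and 9, at 0.0323 and 0.0367, 0.036 and 0.00676, and 0.00989 and 0.0175 times the level of the other cells. Growth and matrix factors had 5 of 19 higher, and AREG, GAS6 and FN1 (fibronectin) lower. The higher ones included PDGFB at 22.4-fold and 20.9-fold and IGF1 at 10.0-fold and 5.92-fold. Lipid handling had 2 of 12 higher and 3, APOE, LPL and FABP4, lower. The higher ones were the cholesterol exporter ABCA1 (4.41-fold and 8.07-fold) and GPNMB (7.29-fold and 5.07-fold), and the lineage regulators had 6 of 14, led by CSF1R at 39.4-fold and 41.6-fold. SPI1, the gene of PU.1, was 12.4-fold and 14.8-fold higher.

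The C1Q macrophages were then set beside the other myeloid cells, taken from cells with fewer than 10 C1QA and C1QB UMIs. These were 41 fresh and 42 cryopreserved cells with at least 5 CCR7 UMIs, 15 and 38 of the rest with at least 2 CD207 UMIs (CD207 is langerin, of Langerhans cells), and 8 and 28 of those left with at least 3 UMIs of MARCO and CD300C together. CD207 cells thus had fewer than 5 CCR7 UMIs. The CCR7 cells held CD207 too, with 209 and 185 UMIs (306 and 348 CPM) against 457 and 605 CPM in the CD207 cells. CD207 therefore does not separate these groups, and C1Q macrophages had none of its UMIs. Over CCR7 cells 217 of 4943 genes were 4-fold higher in C1Q macrophages in both libraries (4.39%) and 125 were 4-fold lower (2.53%). Over CD207 cells 175 of 4645 genes were higher (3.77%) and 89 lower (1.92%), and over MARCO/CD300C cells 103 of 4522 were higher (2.28%) and 57 lower (1.26%). The groups are small, and the counts rest on genes with at least 100 UMIs over both kinds of cells. FOLR2, a folate receptor of tissue macrophages, had 718 and 1584 UMIs in C1Q macrophages against 3 and 0 in CCR7 cells. How reads were split between FOLR2 and its neighbouring paralog FOLR1 was not tested. CD209 was 143-fold higher than in fresh CCR7 cells, where 7 UMIs were found, and had 1 UMI in cryopreserved CCR7 cells. CD163 set the C1Q macrophages apart less sharply. It had a UMI in 14 of 41 fresh and 14 of 42 cryopreserved CCR7 cells, 3 of 15 and 11 of 38 CD207 cells, and 1 of 8 and 6 of 28 MARCO/CD300C cells. C4BPA had 0 and 1 UMI in CD207 cells and 0 in MARCO/CD300C cells of both libraries, and CTSL had 1 and 0 UMIs in CD207 cells and 0 and 1 in MARCO/CD300C cells. CCL2 had 4 and 11 UMIs in CD207 cells and 3 and 29 in MARCO/CD300C cells. Other genes were lower in C1Q macrophages. TOX had 0 and 3 UMIs in C1Q macrophages against 223 and 151 in CCR7 cells, FLT3, the growth factor receptor of dendritic cells, had 10 and 4 against 311 and 144 (52.1-fold and 121-fold lower), and RAB30 had 4 and 6 against 236 and 149 (98.7-fold and 83.5-fold lower). MMP12, an elastase of other macrophages, had no UMI in C1Q macrophages, 89 and 63 in CCR7 cells and 40 and 85 in CD207 cells. EPHA4, FLT1 and FCER1A were lower than in CD207 cells, FLT1 at 65.2-fold and 66.2-fold. CDA, ARG1, THBS1, AREG, PAG1 and KIT were lower than in MARCO/CD300C cells, with ARG1, arginase, at 13 and 1 UMIs against 156 and 47.

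**Figure D2:**
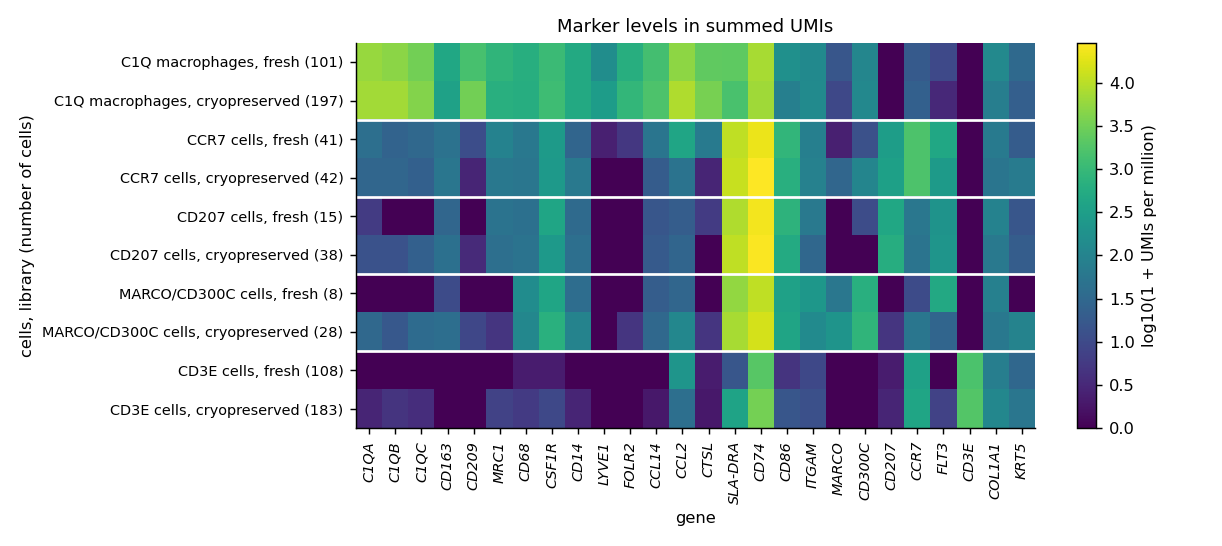
Colour gives log10(1 + CPM) of 26 genes (columns) in the summed UMIs of C1Q macrophages and 4 comparison groups, each in both libraries (rows, number of cells in brackets). C1q, CD163, CD209, LYVE1, FOLR2 and CTSL are brightest in the first 2 rows, while SLA-DRA and CD74 are brighter in CCR7, CD207 and MARCO/CD300C cells than in C1Q macrophages.

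The C1Q macrophages were not uniform, and in both libraries CD209 and MHC class II marked opposite ends. Across cells, the Pearson correlation of log(1 + UMIs per 10000) of CD209 with the sum of 7 MHC class II genes (SLA-DRA, SLA-DRB1, SLA-DQB1, SLA-DMA, SLA-DMB, SLA-DOA and CD74) was -0.63 over 101 fresh cells and -0.68 over 197 cryopreserved cells. The cells of a library share its preparation, and the values are compositional, so these correlations are descriptions. CD209 itself went from 0 to 127 UMIs per 10000 in fresh cells, with a median of 8.41, and from 0 to 113 in cryopreserved cells, with a median of 25.7. The MHC class II sum went from 4.31 to 670 with a median of 107 and from 0 to 721 with a median of 59.5. Depth correlated with CD209 at 0.0067 in fresh and 0.38 in cryopreserved cells. With every cell thinned to 2000 UMIs the correlation of CD209 and class II was -0.61 over 100 fresh and -0.57 over 195 cryopreserved cells. SLA genes are a multigene family, and how reads were split among its members was not tested.

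Of 6254 genes seen in at least 10% of the cells of both libraries, C4BPA went with CD209 most closely, with r of 0.84 in fresh and 0.81 in cryopreserved cells, and 0.70 and 0.75 after thinning to 2000 UMIs. PEPD, a peptidase for proline dipeptides, had 0.71 and 0.72, LYVE1 0.69 and 0.69, FOLR2 0.68 and 0.75, CCL14 0.75 and 0.64, the unnamed ENSSSCG00000031640 0.63 and 0.57, GRN, the lysosomal protein progranulin, 0.62 and 0.57, and CTSL 0.56 and 0.66. After thinning to 2000 UMIs these were lower, with PEPD at 0.47 and 0.50, LYVE1 at 0.46 and 0.46, FOLR2 at 0.51 and 0.57, CCL14 at 0.54 and 0.47, ENSSSCG00000031640 at 0.49 and 0.46, GRN at 0.34 and 0.34 and CTSL at 0.48 and 0.58. CCL14 is a chemokine, and of the other chemokines of these cells CCL2 had 0.31 and 0.54 and CCL8 0.04 and 0.04. Of the 8 genes most against it 5 were class II genes, and the first was the unnamed ENSSSCG00000001456 (-0.71 and -0.76). It was followed by SLA-DRB1 (-0.70 and -0.74), SLA-DQB1 (-0.63 and -0.69), SLA-DRA (-0.59 and -0.67) and CD74 (-0.57 and -0.60), with SLA-DOA, a class II chaperone (-0.43 and -0.47), JAML, an adhesion molecule (-0.44 and -0.46), and TANK, a signalling adaptor (-0.43 and -0.55). After thinning SLA-DOA was at -0.14 and -0.24, JAML at -0.44 and -0.30 and TANK at -0.30 and -0.36, while the first 5 genes were between -0.54 and -0.62 in fresh and between -0.48 and -0.69 in cryopreserved cells. B2M, the light chain of MHC class I, went with the class II sum at 0.48 and 0.54, as did JAML, XYLT1, TSPAN13, TANK and 3 genes without a symbol. PMP22 (-0.52 and -0.41), LGALS3, the lectin galectin-3 (-0.39 and -0.42), and HSD11B1, which activates cortisol (-0.38 and -0.39, or -0.20 and -0.21 after thinning), went against it, beside CD209, C4BPA, CTSL, CCL14 and LYVE1. CD163 followed CD209 only weakly, at 0.28 and 0.34, or 0.16 and 0.19 after thinning, and MSR1 was near 0 (0.08 and 0.02). In sparse counts such weak values are no finding.

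**Figure D3:**
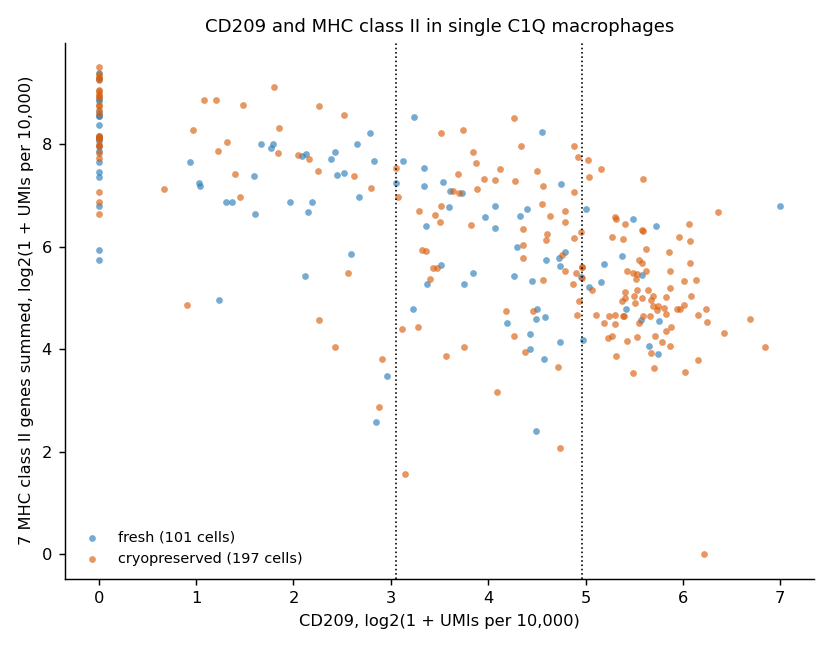
Each point is 1 C1Q macrophage, with CD209 on the horizontal axis and 7 MHC class II genes summed on the vertical axis, both as log2(1 + UMIs per 10000 UMIs); fresh cells are blue and cryopreserved cells orange. Dotted lines at 7.32 and 30.1 CD209 UMIs per 10000 cut all 298 cells into tertiles, and the cells at 0 CD209 UMIs mostly lie high on the class II axis while those beyond the upper line mostly lie low.

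Cells were also cut into tertiles of CD209 over both libraries, at 7.32 and 30.1 UMIs per 10000. These tertiles are ranges of a continuous value, with 8 fresh and 9 cryopreserved cells within 20% of the lower limit and 11 and 24 within 20% of the upper. Of the fresh cells 48 were in the lowest tertile (47.5%, 37.5 to 57.7%), 38 in the middle and 15 in the highest (14.9%, 8.56 to 23.3%). Of the cryopreserved cells 52 were in the lowest (26.4%, 20.4 to 33.1%), 61 in the middle and 84 in the highest (42.6%, 35.6 to 49.9%). A larger share of the cryopreserved cells thus lay above the upper limit. Because the limits were set on CD209 over both libraries, these shares restate the higher CD209 of the cryopreserved library. From the lowest to the highest tertile SLA-DRA went from 3791 to 147 CPM (scaled as in the comparison of the libraries) in fresh and from 5484 to 214 in cryopreserved cells, and C4BPA from 1975 to 19366 and from 2793 to 18275. LYVE1 had 4 and 3 UMIs in the lowest tertile and 79 and 417 in the highest. CIITA, the master regulator of MHC class II genes, had 156 of its 170 fresh UMIs and 47 of its 76 cryopreserved UMIs in the lowest tertile. FLT3 of dendritic cells had 9 of its 10 fresh and all 4 cryopreserved UMIs in that tertile, and the co-stimulatory gene CD86 170 of 197 and 81 of 152. The macrophage genes CSF1R and CD163 were at 844 and 1067 and at 401 and 242 scaled CPM in the same cells. Whether all cells of the lowest tertile are macrophages rather than dendritic cells was not tested. CX3CR1, the fractalkine receptor of monocytes, had 18 and 3 UMIs, all in the lowest tertile and 71.4% of them in 1 cell, and CCR2, the monocyte receptor for CCL2, had 12 and 2 UMIs in the lowest and middle tertiles of the fresh library and none in 197 cryopreserved cells.

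Between the libraries, C1Q macrophages made up 3.64% of fresh (2.97 to 4.41%) and 4.66% of cryopreserved kept cells (4.05 to 5.34%), a difference of 1.03 percentage points (0.0569 to 1.95). The limits kept 2775 of 4379 fresh and 4223 of 4860 cryopreserved barcodes and so set the denominators, and 13 fresh and 7 cryopreserved barcodes outside them met the rest of the rule.

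For genes, UMIs were summed over the C1Q macrophages of each library and expressed as CPM scaled with edgeR's TMM factors, and the log2 ratio is cryopreserved over fresh. Of 4143 genes with at least 100 UMIs over both libraries, 59 were at least 2-fold higher in cryopreserved cells (1.42%) and 49 at least 2-fold lower (1.18%), 2.61% in all. Scaled by total UMIs, which lowers every log2 ratio by 0.13, the split was 39 higher and 66 lower. With barcodes outside the limits included more genes passed 2-fold, most of them lower. Equal weight of the CD209 tertiles gave fewer lower genes. These counts are in the closing section. The median log2 ratio of all tested genes was 0.07 and 56.7% of them lay above 0, against -0.06 and 44.1% under scaling by total UMIs. The median absolute log2 ratio was 0.27, against 0.21 for the same genes in all other kept cells, where 15 were 2-fold higher and 10 lower. Of the 108 genes, 12 were past 2-fold in the same direction in the other cells, 62 lay within 0.5 of 0 there, and 26 had over 10% of their UMIs of both libraries in 1 cell.

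**Figure D4:**
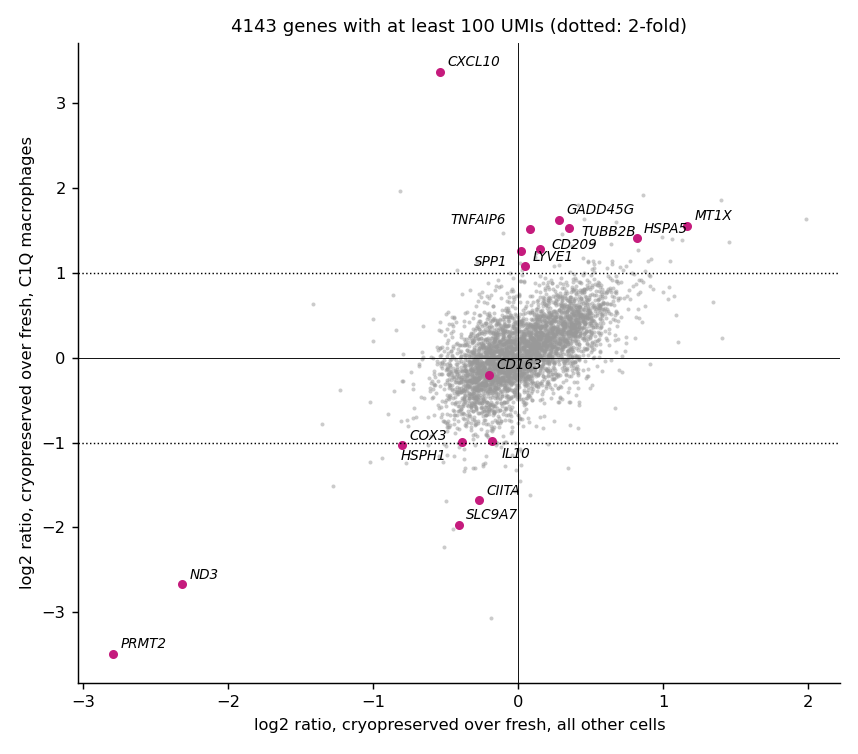
Each point is 1 of 4143 genes with at least 100 UMIs in C1Q macrophages, with the log2 ratio of cryopreserved over fresh scaled CPM in all other kept cells on the horizontal axis and in C1Q macrophages on the vertical axis. Dotted lines mark 2-fold; ND3 and PRMT2 lie at the lower left, low in both kinds of cells, while CD209, LYVE1 and CIITA lie near 0 on the horizontal axis and past a dotted line on the vertical axis.

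CD209 and LYVE1 were past 2-fold among the scavenger receptors and lectins, though LYVE1 was at 0.95, below 2-fold, under scaling by total UMIs. CD209 was at 1399 scaled CPM in fresh and 3392 in cryopreserved cells, a log2 ratio of 1.28 (1.2 to 1.36), against 0.15 in the other cells, and LYVE1 at 147 and 311, 1.08 (0.83 to 1.33), against 0.05. Within the tertiles of CD209, from the lowest to the highest, LYVE1 was at 0.15 (-2.62 to 2.72), 0.32 (-0.09 to 0.73) and 0.08 (-0.27 to 0.45), below 2-fold in each. CD163 was at 436 and 379, a log2 ratio of -0.20 (-0.37 to -0.03), and MRC1 at 811 and 670, -0.28 (-0.40 to -0.15). MSR1 had -0.47 and COLEC12, a collagen-like scavenger receptor, -0.61. The list of scavenger receptors and lectins had 2 of 11 genes past 2-fold higher and none lower, with a median of 0.07 that turned to -0.06 under scaling by total UMIs, against -0.20 in the other cells. C1q and complement without C1QA and C1QB, which chose the cells, had 0 of 6 past 2-fold and 6 above 0 (5 under scaling by total UMIs), with a median of 0.44 (0.31) against -0.08 in the other cells, which hold few C1q UMIs by the same rule. With both genes the list had 0 of 8 past 2-fold and a median of 0.44 against -0.22, and of 0.081 with the 3 tertiles of CD209 weighted equally in both libraries. C1QC was at 3114 and 4530, 0.54 (0.48 to 0.60). SERPING1, the C1 inhibitor, was highest of the list at 0.81, and CFB had no UMI. C4BPA was at 8488 and 13726, 0.69 (0.66 to 0.73). Within the tertiles of CD209 it was at 0.50 (0.37 to 0.63) in the lowest and 0.22 (0.16 to 0.27) in the middle. In the highest tertile it was at 19366 and 18275, lower in the cryopreserved library.

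MHC class II had 10 of 11 genes below 0 and 1 past 2-fold, with a median of -0.24 against 0.12 in the other cells. CIITA was at 142 and 44.4, a log2 ratio of -1.68 (-2.09 to -1.28), and -1.40 without the top cell of each library, and 1 cell held 19.5% of its UMIs. SLA-DRA was at 2202 and 1581, -0.48 (-0.56 to -0.40), SLA-DRB1 at -0.22, SLA-DQB1 at -0.15, CD74 at -0.09, and CD86, a co-stimulatory ligand, at -0.89 with 10.0% of its UMIs in 1 cell. Under scaling by total UMIs CD86 was at -1.02 and also past 2-fold. The median of the list was 0.15 with the 3 tertiles of CD209 weighted equally in both libraries. It was 0.076 without cells that held UMIs of other lineages, a limit that kept 145239 of 1144506 fresh and 428228 of 1788725 cryopreserved UMIs. Without counting PECAM1 and MS4A2 the limit kept 1074699 and 1704213 UMIs, and the median under that form is not reported here. Why the median turned was not tested. Within the lowest tertile SLA-DRA was at 3791 and 5484 (0.53, 0.44 to 0.62), higher in the cryopreserved library, and SLA-DRB1 and SLA-DQB1 were at 0.77 and 0.73. CIITA stayed lower there, at 293 and 131 (-1.16, -1.67 to -0.68), but 1 cell held 48 of its 156 fresh UMIs in this tertile. The ratio of CIITA in this tertile without that cell is not reported here.

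**Figure D5:**
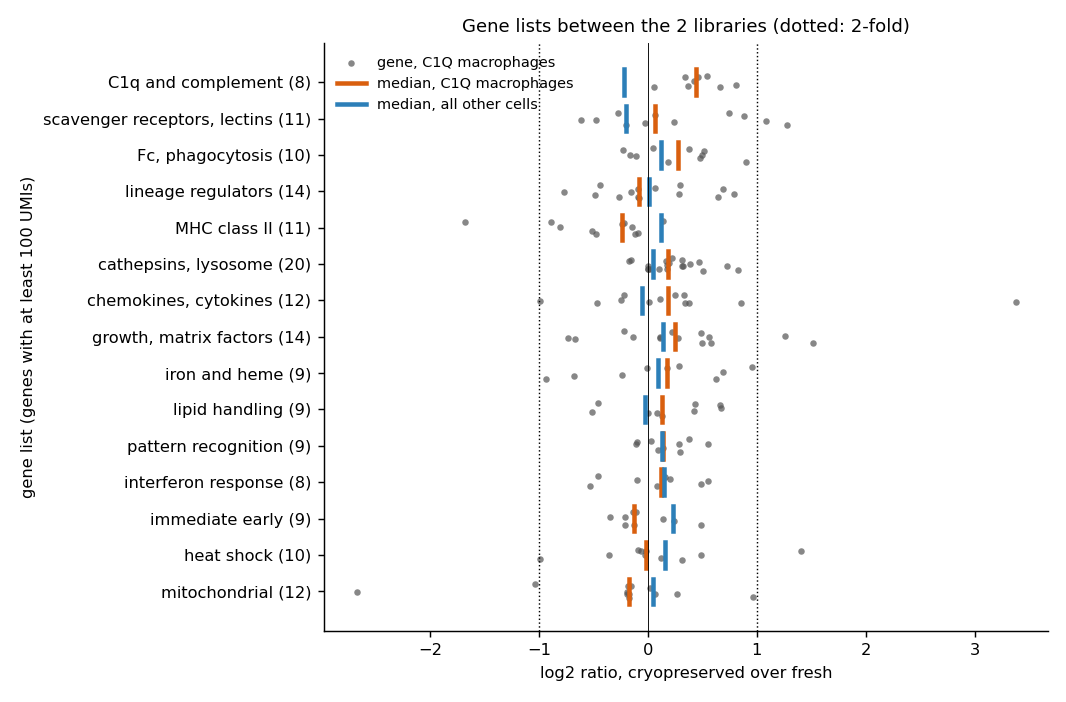
Each grey point is 1 gene of the list named on the vertical axis (number of genes with at least 100 UMIs in brackets), at its log2 ratio of cryopreserved over fresh in C1Q macrophages. Orange bars are list medians in C1Q macrophages and blue bars the medians of the same genes in all other kept cells; the medians of lists with at least 8 such genes lie between -0.24 and 0.44, and 9 of the listed genes lie past the dotted lines of 2-fold.

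Of 20 tested cathepsin and lysosome genes 17 were above 0 (13 under scaling by total UMIs) and none past 2-fold, with a median of 0.19 (0.06 under that scaling) against 0.05 in the other cells. The median of all tested genes in C1Q macrophages was 0.07 (-0.06). CST3 was at 0.47, CTSD, an aspartic protease, at 0.83, CTSL at 0.72, CSTB at 0.51, LGMN at 0.17 and CTSB at 0.00. Iron and heme genes had 0 of 9 past 2-fold and a median of 0.17 against 0.09, with HMOX1 at 737 and 1434 (0.96), FTL at 0.69 and the iron exporter SLC40A1 at -0.93, which was -1.06 and past 2-fold under scaling by total UMIs. FOLR2, in this list too, was at 0.63, but within the tertiles of CD209 at -0.55 (-1.16 to 0.04), -0.43 (-0.65 to -0.22) and 0.23 (0.02 to 0.45) from the lowest to the highest. Fc and phagocytosis genes had 0 of 10 past 2-fold and a median of 0.28 against 0.12, with FCER1G at 0.51 and TYROBP at 0.50, close to their 0.57 and 0.47 in the other cells. Lineage regulators had 0 of 14 past 2-fold and a median of -0.09 against 0.0092, with SPI1 at 0.69, IRF8 at 0.79, CEBPB at 0.64 and MAF at -0.48. Lipid genes had 0 of 9 past 2-fold and a median of 0.13 against -0.02, with FABP5, a fatty acid carrier, at 0.67 and GPNMB at -0.45. Pattern recognition had 0 of 9 and 0.14 against 0.13, and CD14 and TLR2 were at 0.14 and -0.10. The median of this list was 0.0094 under scaling by total UMIs and below 0 with equal weight of the CD209 tertiles. The interferon list had 0 of 8 and a median of 0.12 against 0.14, the former -0.01 under scaling by total UMIs, with IFI6 at 0.49 and MX2 at -0.53.

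Several secreted factors had a large share of their UMIs in 1 cell. CXCL10, a chemokine for T cells, had 27 UMIs in 4 fresh cells and 400 in 11 cryopreserved cells, a log2 ratio of 3.37, and 1 cell held 70.5% of all its UMIs. Without the top cell of each library 4 and 99 UMIs were left. IL10, an anti-inflammatory cytokine, was at 192 and 97.0 (-0.99, -1.28 to -0.69), with 23.0% of its UMIs in 1 cell and a log2 ratio of -0.51 without the top cell of each library, and was past 2-fold at -1.11 under scaling by total UMIs and just past it with DESeq2 size factors. CCL2 was at 4879 and 8803 (0.85), next to 0.79 in the other cells, CCL8 at -0.47 next to -0.67, and CXCL2, CCL14, CCL5 and CCL4 at 0.11, 0.37, 0.34 and 0.25. For CXCL2, 1 fresh cell held 941 of 4038 fresh UMIs. Without the top cell of each library CCL2 was at 0.999, CCL8 at -0.30, CXCL2 at 0.44, CCL14 at 0.39, CCL5 at 0.28 and CCL4 at 0.21. The list had 1 of 12 genes past 2-fold and a median of 0.18 against -0.06. Of the growth and matrix factors SPP1, osteopontin, had 83 UMIs in 15 cells and 283 in 28 (1.25, 0.90 to 1.62), with 30.3% in 1 cell (1.18 without the top cells), and TNFAIP6, which remodels hyaluronan, 34 in 9 cells and 139 in 31 (1.52, 0.97 to 2.10), with 12.1% in 1 cell (1.72 without the top cells). SELENOP, a selenium carrier, was at 0.50, F13A1, a coagulation factor subunit of dermal macrophages, at -0.14, PDGFB at 0.11, TGFB1 at 0.48, and TIMP1 and TIMP2 at 0.58 and 0.22. The list had 2 of 14 genes past 2-fold, both higher, and a median of 0.25 against 0.13.

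Genes known to respond to handling of cells had no common direction. The immediate early list had 0 of 9 genes past 2-fold and a median of -0.13, against 0.23 in the other cells, with NFKBIA at -0.11, FOS at -0.14, ATF3 at -0.13, ZFP36 at 0.14 and DUSP1 at 0.24. With equal weight of the CD209 tertiles the median of this list turned to 0.14. Of 10 heat shock genes 1 was past 2-fold, HSPA5, the chaperone of the endoplasmic reticulum, at 258 and 686 (1.41, 1.23 to 1.59), against 0.82 in the other cells. HSPH1 was at 588 and 296 (-0.99, -1.16 to -0.82), or past 2-fold at -1.12 under scaling by total UMIs and just past it with DESeq2 size factors, HSP90AA1 at -0.06 and HSPA8 at -0.02, and the list's median was -0.02 against 0.15. RBM3, a cold-induced RNA-binding protein, was at 0.56, near the 0.59 of the other cells. The 11 division genes found summed to 306 and 489 UMIs, led by STMN1 with 108 and 213, PCNA with 92 and 148 and HMGB2 with 52 and 73. Against all other kept cells PCNA was at 1.70-fold and 1.29-fold and STMN1 at 1.21-fold and 0.878-fold, while TOP2A had 2 and 8 UMIs and CDK1 1 and 18. The 3 division genes with at least 100 UMIs were within 2-fold between the libraries, with a median of 0.17 against 0.64 in the other cells.

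Of the genes with the largest ratios in which no cell held over 10% of the UMIs of both libraries together, several lay on the same side in the other cells. PRMT2 was at 91.9 and 8.18 (-3.49, against -2.79 in the other cells), and ND3, a mitochondrial subunit of complex I, at 611 and 95.8 (-2.67, against -2.32). COX3, a further mitochondrial gene, was at 5824 and 2847 (-1.03, against -0.80), while the 12 tested mitochondrial genes had a median of -0.17 (0.05 in the other cells), 2 past 2-fold lower, and ND4L was at 0.96. This median was 0.046 with equal weight of the CD209 tertiles. It was 0.045 without cells that held UMIs of other lineages, a limit that kept 145239 of 1144506 fresh and 428228 of 1788725 cryopreserved UMIs. The median without counting PECAM1 and MS4A2 in that limit is not reported here. Higher in both kinds of cells were SERF2 (1.71 and 1.27) and the metallothionein MT1X (1.56 and 1.16). MT1X turned to -0.72 when barcodes outside the maxima were included. Further apart from the other cells were GADD45G, a stress-induced gene, at 41.8 and 129 (1.63, 1.18 to 2.10, against 0.28), TUBB2B, a tubulin, at 291 and 837 (1.52, against 0.35), and OPTN, an autophagy receptor, at 17.6 and 53.2 (1.60, against 0.67). On the lower side SLC9A7, an ion exchanger, was at 71.1 and 18.1 (-1.97, -2.61 to -1.36, against -0.41), and NIBAN1 (-1.33), PLEKHA2 (-1.32), SLC4A7 (-1.30), AHCYL2 (-1.30), the nuclear receptor coactivator NCOA3 (-1.30) and the myosin MYO1E (-1.28) were between -0.37 and -0.01 in the other cells. The remaining 5 of these 20 genes have no symbol. Within the fresh library alone the share of 1 cell could be larger. Such a cell held 79 of 348 fresh UMIs of TUBB2B, 18 of 95 of MT1X, 139 of 914 of NCOA3 and 75 of 481 of MYO1E.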

How the data were processed

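Single-cell RNA was measured in 2 libraries of pig skin cells, 1 fresh and 1 cryopreserved. The deposited matrices hold raw UMI counts per gene and barcode, which the authors made with Cell Ranger 4.0.0 (STAR 2.5.1b, genome Sscrofa11.1), as the submitters' processing notes name them. Of 31908 features, 14417 carry an Ensembl identifier only and 772 were named through a gene table. Cells were limited and chosen as described, with no clustering and no doublet caller.

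UMIs were summed over C1Q macrophages in each library and scaled with TMM factors (edgeR 4.0.16, R 4.3.3), or with total UMIs or DESeq2 1.42.0 size factors as alternatives. Ratios against other cells used the total UMIs of each cell group. Other steps used Python 3.11.15, numpy 2.4.6, scipy 1.17.1, pandas 2.3.3 and matplotlib 3.10.9. The ratio code was tested on simulated data. With 1 library in each group no p-value was computed. A gene past 2-fold (libraries) or 4-fold (cell groups) was counted, and where a denominator was below 3 UMIs it was set to 3.

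The members, comparison cells and gene lists were chosen with earlier results of these data known. Of 316 listed genes in 30 lists, 277 were found. A few of them are not reported here. Named genes were the rule's markers, up to 6 most abundant members of each list with those past 2-fold or at 0, the 10 highest and 10 lowest ratios between libraries without 1 cell over 10% of the UMIs of both libraries, the 20 largest folds over all other cells, the 6 largest differences from each comparison group and the 8 closest correlations. Some further list members were named after their values were seen. Promoters were read from the RefSeq annotation and genome of the same build.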

Additional observations from a re-analysis of the deposited data

Results flagged for a closer look

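Barcodes outside the limits on genes, UMIs or mitochondrial share entered no comparison, and 13 fresh and 7 cryopreserved ones met the rest of the rule for C1Q macrophages. All 13 fresh barcodes were over the gene maximum and 5 were also over the UMI maximum. Of the cryopreserved barcodes 5 were over the gene maximum, 3 over the UMI maximum and 2 over the mitochondrial limit. Their median depth was 28263 and 29751 UMIs. C1QC had 527 and 373 UMIs in them and was in every one. CD163 had 106 UMIs in 9 fresh and 15 in 4 cryopreserved barcodes, and CD209 had 439 UMIs in 10 and 175 in 7. Whether such barcodes hold 1 cell or more was not tested.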

How the results depend on the processing

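No paired analysis was possible because each group has 1 library, and leaving out a replicate was not possible for the same reason. Depth limits the shares of cells with a UMI. Thinned to 2000 UMIs, the share with CD163 was 50% in fresh and 47.7% in cryopreserved cells and that with CD209 61% and 78.5%. Without cells that held at least 2 UMIs of endothelial, mural, mast or melanocyte genes, a limit that left 23 fresh and 64 cryopreserved cells (95 and 186 where PECAM1 and MS4A2 were not counted), the fresh shares were 69.6% (CD163) and 91.3% (CD209) and the cryopreserved shares 76.6% and 85.9%. Counts of genes past 2-fold, 108 in the main analysis, were 208 with all barcodes (121 lower), 211 with a minimum of 50 UMIs (115 higher, 96 lower), 46 with 200 UMIs (29 higher, 17 lower) and 2138 with no minimum (924 higher, 1214 lower). Scaling by total UMIs gave 39 higher genes and equal weight of CD209 tertiles 22 lower genes. The MHC class II median turned to 0.076 without cells holding other lineages' UMIs and to 0.15 with equal tertiles, and the mitochondrial median to 0.045 and 0.046. The turns under the lineage limit rest on the 23 fresh and 64 cryopreserved cells it left. These medians are not reported for the 95 and 186 cells left where PECAM1 and MS4A2 were not counted. MT1X turned to -0.72 with all barcodes. Of the medians, immediate early genes were at 0.14, pattern recognition at -0.03 and cathepsins at 0.03 with equal tertiles. Thinning to 2000 UMIs moved 22 of 32 correlations. Why these values turned or moved was not tested. The difference in share of C1Q macrophages stayed between 0.687 and 1.59 percentage points over its alternatives. Equal tertiles, the lineage limit without PECAM1 and MS4A2, and leaving out the top cell of each gene were chosen after seeing the data.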
